A study of Saccharomyces cerevisiae with 7 samples.

Results

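The regions described here are the places in mRNA 3' untranslated regions (3' UTRs) that were crosslinked to the RNA-binding protein Puf4 in growing budding yeast, Saccharomyces cerevisiae. They were taken as every site in the authors' Puf4 list whose class was 3' UTR (536 sites) or predicted 3' UTR (4 sites). These 540 sites in 474 genes were 17.99% of the 3002 Puf4 sites and came from a series of 10580 sites in 5 CLIP (crosslinking and immunoprecipitation) libraries. The Puf4 strain was of mating type a, carried the auxotrophic alleles his3Δ1, leu2Δ0, met15Δ0 and ura3Δ0, and had the PUF4 gene fused to a TAP tag and marked by HIS5. The other 4 libraries came from strains of the same genotype with the tag on Puf5 (gene MPT5), Puf2, Puf1 (gene JSN1) or Puf6, and no untagged library was used here. All 5 strains were grown at 30 °C with 200 µM 4-thiouracil, irradiated with 365 nm light, and their RNA was trimmed with RNase T1, which cuts after G. Levels of mRNA came from 2 pooled samples of another strain, BY4742 with puf3 labelled as deleted, whose background is the other mating type. In these samples the deleted gene itself, PUF3, was listed at 23.6 RPKM (reads scaled to transcript length and library size), and the RNA came from extract depleted of ribosomes. The labels give these samples the UV treatment in one field and exclude crosslinking in another, so whether they were irradiated is unclear. The levels thus stand only approximately for those of the Puf4 strain. Each protein had 1 library, so no difference between libraries had a replicate check and no p-value is given. Intervals are exact 95% binomial intervals and cover counting error only.

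Puf4 belongs to the Pumilio family, whose members fold into a crescent of repeats that reads short RNA elements base by base, mostly in 3' UTRs. In yeast these proteins recruit the deadenylase machinery and are known for shortening the life of the mRNAs they hold, and Puf4 is known for binding mRNAs of nucleolar ribosome biogenesis factors and, together with Puf5, the mRNA of the HO endonuclease. Histone mRNAs, ribosomal protein mRNAs and cell wall mRNAs are strongly regulated classes in growing yeast cells.

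Puf4 sites in 3' UTRs were far stronger than Puf4 sites in coding sequence. The measure is RPM, the authors' read count of a site scaled to the size of its library. The 540 sites in 3' UTRs had a median of 625 RPM (interval 560 to 716), against 102 RPM (93.5 to 108) at the 1170 coding sites of the same library. They held 58.4% of all Puf4 RPM, while coding sites, with 39.0% of Puf4 sites, held 21.4%. A level of at least 1000 RPM was reached by 122 sites in 3' UTRs and by 14 coding sites. The strength was unevenly spread. The strongest site alone held 9.39% of the RPM in 3' UTRs, the strongest 10 held 22.1% and the strongest 100 held 60.5%. Values peaked between 500 and 1000 RPM, a range with 192 sites (35.6%), against 7.09% of coding sites and 50.5% of the 3' UTR sites of Puf2. The whole spread was wide, with quartiles at 140 and 973 RPM, against 54.8 and 147 RPM at Puf4 coding sites. A separate low group of 83 sites lay under 30 RPM with a median of 3.10 RPM. The bound of 30 RPM was set after the distribution was seen. The weakest site had 0.600 RPM. Sites in 3' UTRs were also shorter, with a median length of 22 nt (12 to 62 nt) against 29 nt in coding sequence.

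**Figure D1:**
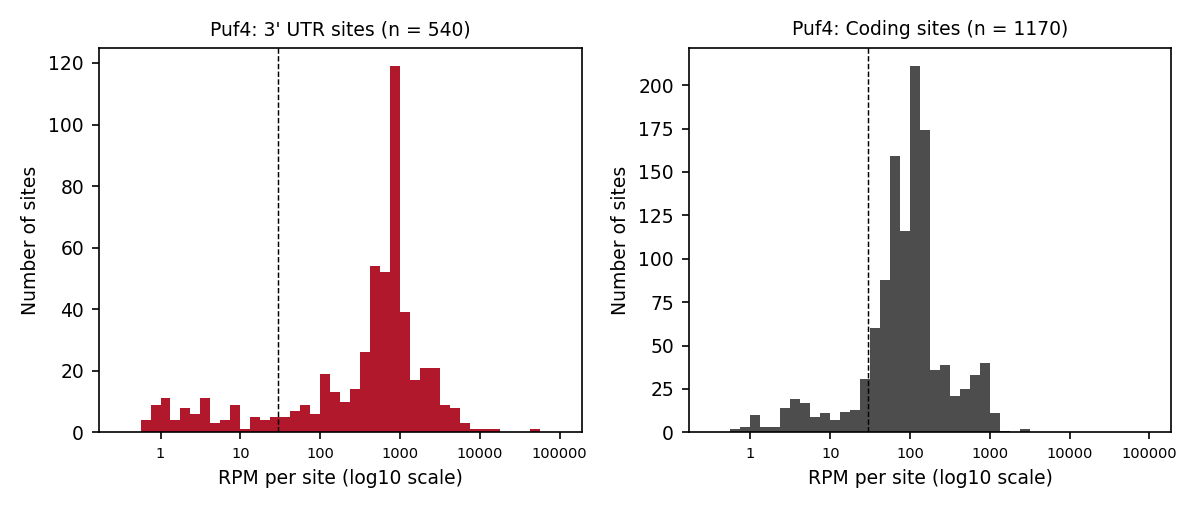
Distribution of RPM (log10 axis) over the 540 Puf4 sites in 3' UTRs and the 1170 Puf4 sites in coding sequence, as numbers of sites per bin in panels with their own vertical scales and a dashed line at 30 RPM. Sites in 3' UTRs peak between 500 and 1000 RPM with a tail to 49293 RPM and a low group under 30 RPM, and coding sites centre on 102 RPM.

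The strongest site lay in the 3' UTR of TDH3, which encodes the glycolytic enzyme glyceraldehyde-3-phosphate dehydrogenase (build sacCer3, chromosome VII, 882727 to 882750, minus strand, positions as deposited). Its value was 49293 RPM in Puf4, and overlapping sites had 26925 RPM in Puf1, 7626 RPM in Puf2 and 2937 RPM in Puf5. TDH3 was also the most abundant mRNA, at 24821 RPKM. The second site was of another kind. It lay in NIP1, which encodes a subunit of the translation initiation factor eIF3 (chromosome XIII, 892748 to 892770, minus strand), and had 14016 RPM in Puf4, against 241 RPM in Puf5, with no overlapping site in Puf1, Puf2 or Puf6. NIP1 mRNA was at 295 RPKM, so this site was not one of a very abundant mRNA. ILV5, an enzyme of branched-chain amino acid synthesis, held the third site (chromosome XII, 837874 to 837905, minus strand). It had 10548 RPM in Puf4, against 316 RPM in Puf2 and 276 RPM in Puf5.

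Sites 4 to 10 in strength were in genes of chromatin, transport, respiration and translation. HHF2, a histone H4 gene, had a site of 7702 RPM in Puf4 (chromosome XIV, 577167 to 577188, plus strand), where Puf5 had 8615 RPM and Puf2 720.1 RPM. PHO84, the high-affinity phosphate transporter, had 6813 RPM in Puf4, against 398 RPM in Puf5 at a site with the same bounds (chromosome XIII, 24003 to 24021, minus strand). HHT2, a histone H3 gene, had 5983 RPM in Puf4, against 1416 RPM in Puf5 (chromosome XIV, 575391 to 575420, minus strand). In HHF2 the Puf5 value was thus the higher, and in PHO84 and HHT2 the Puf4 value. ATP1, the alpha subunit of the mitochondrial ATP synthase, had 5670.6 RPM in Puf4 (chromosome II, 38851 to 38875, plus strand) and was the strongest site that no other library overlapped. RPL39, a large subunit ribosomal protein gene, had 5439 RPM in Puf4, 1333 RPM in Puf1 and 756 RPM in Puf2 (chromosome X, 76574 to 76597, plus strand). RPS19B, of the small subunit, had 5214 RPM in Puf4, against 1145 RPM in Puf5 (chromosome XIV, 61901 to 61922, minus strand). SUP45, the translation release factor eRF1, had 5202 RPM in Puf4, against 341 RPM in Puf5 (chromosome II, 530761 to 530783, minus strand). None of these 10 sites overlapped a Puf6 site.

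Summed over all its 3' UTR sites, a gene could rank differently from its best site. The 20 genes with the largest sums included TDH3, NIP1, ILV5, HHF2, PHO84, RPS19B, SUP45, HHT2, RPL39, SAH1, ATP1, RPL9B, YEF3, HTB1, RPS27A, TEF1, SSA1, MBF1 and DSE2. Sums ran from 49293 RPM in TDH3 to 3962 RPM in DSE2, a daughter cell wall glucanase. SAH1, which breaks down S-adenosylhomocysteine, reached 5705 RPM from 3 sites. MBF1, a transcriptional coactivator, had 3988 RPM at a single site.

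Most sites lay close to the stop codon. For the 533 sites whose gene was in the RefSeq table, the median distance from the end of the coding sequence to the site was 60 nt, with quartiles at 31 and 103 nt. Within 50 nt of the stop codon there were 208 sites, a further 167 lay up to 100 nt, 95 more up to 200 nt and 43 beyond 200 nt. Another 20 sites reached into the end of the coding sequence, the furthest by 14 nt in CCW12, a cell wall mannoprotein gene. The most distant site was 839 nt past the stop codon of USE1, which encodes a SNARE protein of Golgi-to-ER transport (906 RPM), and the next were in MPT5 (577 nt) and CBF1 (539 nt). The strongest 100 sites lay at a median of 63.5 nt and the sites under 30 RPM at 62.5 nt, so position did not separate strong from weak sites. Medians in the other libraries were 66 nt in Puf5, 71.5 nt in Puf2, 67 nt in Puf1 and 49 nt in Puf6. Only 3 of the 540 sites lay over the coding sequence of another gene on the same strand.

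**Figure D2:**
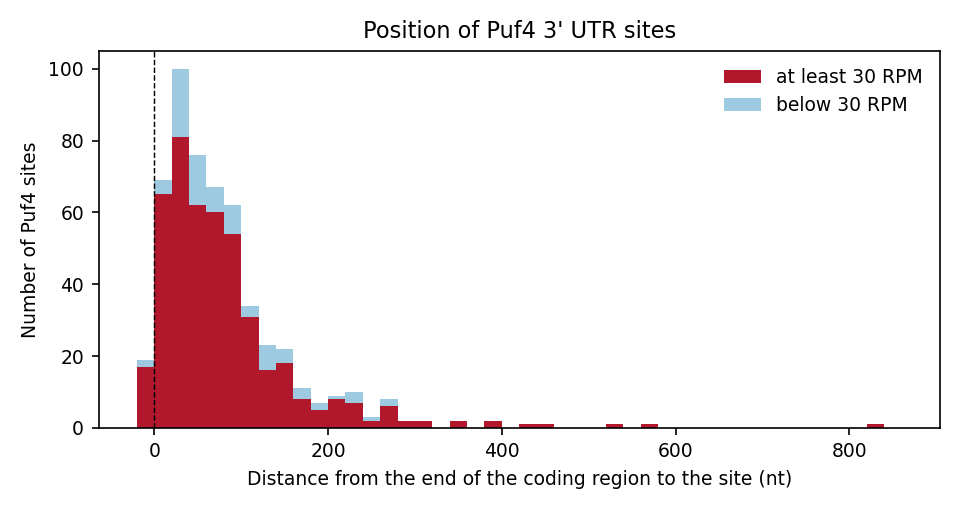
Number of Puf4 3' UTR sites by distance in nt from the end of the coding region (dashed line) to the site, with sites of at least 30 RPM in red and weaker sites stacked on them in light blue. Both kinds crowd within 100 nt of the stop codon, the median over the 533 sites is 60 nt, and the furthest lies at 839 nt.

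Of the 474 genes, 417 had 1 site, 49 had 2 sites, 7 had 3 sites and YDR524C-B, whose protein is uncharacterised, had 4 sites. Genes with at least 2 sites made up 12.03% (9.24 to 15.3). Where there were several, a single site usually dominated: the strongest held a median of 76.95% of the gene's 3' UTR RPM, and in 16 of these 57 genes the second site came within 2-fold of the first. The strongest was the site nearest the stop codon in 21 of the 57 genes. Among genes with 3 sites, NOP1, the nucleolar methyltransferase fibrillarin, had values of 778, 630 and 515 RPM, and RPS22A, a small subunit ribosomal protein gene, 985, 787 and 522 RPM. Of the genes with 2 sites, RPL43B, of the large subunit, had 761 and 688 RPM. GSP1, the Ran GTPase of nuclear transport, was the most uneven, with 99.9% in its strongest site. The closest neighbouring sites of each gene were separated by a median of 29 nt and in 13 genes by less than 10 nt.

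The mRNA level was set against binding over 5518 measured genes, meaning protein-coding genes that reached 1 RPKM. Of these, 461 had a Puf4 3' UTR site, which is 8.35% (7.64 to 9.12), and 394 (7.14%) had a site of at least 30 RPM. A coding site of Puf4 was present in 13.5% and a 3' UTR site of Puf5 in 17.3%. In the remaining libraries 3' UTR sites were found in 4.62% of measured genes for Puf2, 2.7% for Puf1 and 1.49% for Puf6. The share of genes with a Puf4 3' UTR site was 1.90% in the lowest quintile of RPKM, then 3.08%, 4.08% and 10.2%, and 22.5% in the highest quintile. The median summed RPM of the bound genes climbed along the same steps, at 365, 460.2, 573, 601 and 886 RPM. Bound genes had a median of 214 RPKM, against 60.5 RPKM over all measured genes. Across the 466 bound genes with an RPKM of at least 1, Spearman's rho of summed RPM with RPKM was 0.36. This describes genes of 1 library and 1 pooled mRNA table, and the RPM comes from the number of RNA molecules as well as from the share bound. For comparison it was 0.25 over 959 genes in Puf5 and 0.20 over 752 genes with Puf4 coding sites.

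Abundance did not settle which mRNAs held a site. Of the 100 most abundant mRNAs, 48 had a Puf4 3' UTR site and 52 had none, and 41 of those 52 did have a Puf4 coding site. Several glycolytic mRNAs were of this second kind. FBA1, the aldolase gene (10020.5 RPKM), ENO2, an enolase gene (9899 RPKM), and PDC1, pyruvate decarboxylase (8803 RPKM), had no Puf4 3' UTR site but 5, 8 and 12 coding sites, while TDH3 had 1 site in its 3' UTR and 14 in its coding sequence. Genes bound in the 3' UTR without a coding site (300 genes) had a median of 123 RPKM, those bound in both parts (161 genes) had 704 RPKM and those with coding sites alone (586 genes) had 135 RPKM. The 4471 genes with neither had a median of 51.5 RPKM.

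Relative to mRNA level, the median gene had 2.36 RPM per RPKM, with quartiles at 0.525 and 6.78. The 10 genes with the highest ratio were MFA1, MFA2, HSP30, DAN4, CSM2, RPO21, NIP1, SEC16, YGR174W-A and MTH1. MFA1 and MFA2 encode the a-factor mating pheromone, which cells of mating type a make and cells of the other type do not. MFA1 had 3089 RPM at 1.35 RPKM and MFA2 had 651 RPM at 1.11 RPKM, ratios of 2288 and 586. LYS2, a lysine synthesis gene that the BY4742 background lacks, had 2736 RPM at 0 RPKM and so entered no ratio. The CLIP and mRNA-seq strains differ in these genes, so values of MFA1, MFA2 and LYS2 do not show how much of the mRNA was bound. YDR524C-B (1493 RPM), IRC13 (66.8 RPM) and DAD1 (37.45 RPM) were also listed at 0 RPKM, and the reason was not tested. Among genes shared by both strains, RPO21, the largest subunit of RNA polymerase II, had 3730 RPM at 71.1 RPKM. SEC16, a scaffold of COPII vesicle sites, had 2562 RPM at 56.8 RPKM. The ratios of RPO21, NIP1 and SEC16 were 52.5, 47.6 and 45.1, all far above the upper quartile. HSP30, a stress-induced membrane protein gene, reached 84.5 at 5.09 RPKM.

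**Figure D3:**
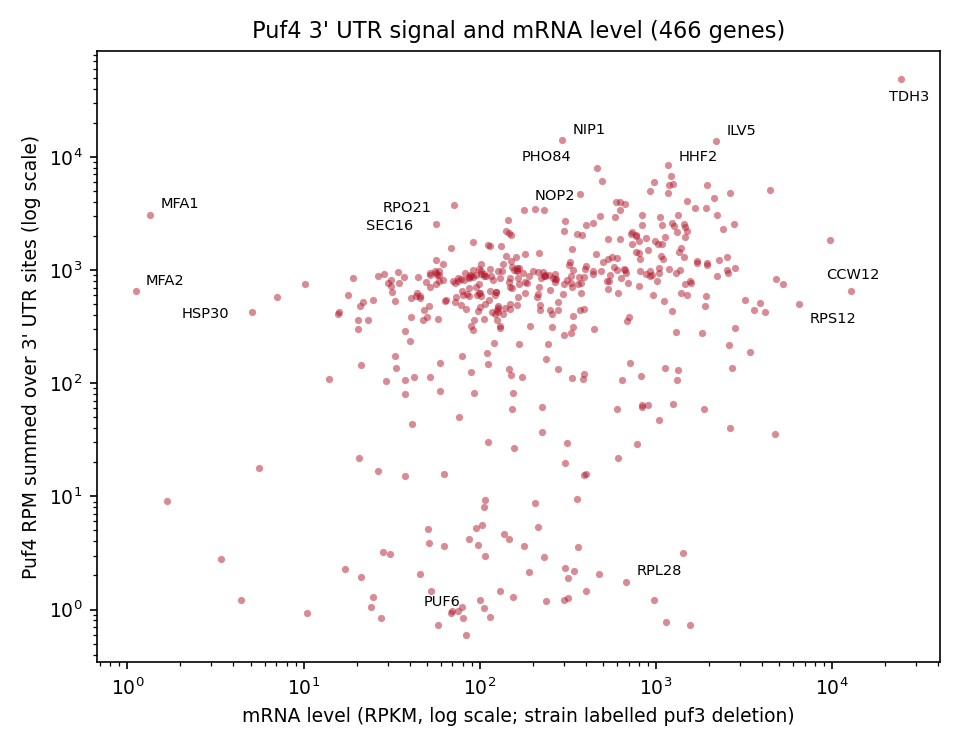
Summed Puf4 3' UTR RPM (vertical) and RPKM (horizontal) for the bound genes with an RPKM of at least 1 (both axes log10), with several genes named. The cloud rises with mRNA level (Spearman's rho 0.36 over 466 genes), MFA1 and MFA2 lie far to the left, and NIP1, RPO21 and SEC16 lie above the cloud.

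Functional groups were described by the share of their measured genes with a Puf4 3' UTR site, to be read against 8.35% of all measured genes and against the share at a like mRNA level. Within the highest quintile (22.5%) the share still climbed with level: 48 of the 100 most abundant mRNAs were bound, 43 of the next 100 (946 to 1460 RPKM), 36 of the third 100 (628 to 945 RPKM), 19 of the fourth and 17 of the fifth (389 to 485 RPKM). These counts include the listed genes themselves. Of the 18 lists with more than 1 gene, 10 had more than 2 times the share of all genes. That count takes no account of mRNA level. Glycolysis and fermentation enzymes, for example, are among the 10 with 19.4% at a list median of 668 RPKM, where 36 of 100 genes were bound. Together the lists held 210 of the 461 bound genes (45.6%). No list was tested, since genes were chosen with earlier results known.

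Histones had the largest share. Of 10 histone genes, 7 (70.0%, interval 34.8 to 93.3) had Puf4 3' UTR sites, while Puf5 had 3' UTR sites in all 10. The list median was 1120 RPKM, a level at which 43 of 100 genes were bound (list members included), a value inside the interval. All core histone types were among the 7: HHF2 (8479 RPM) and HHF1 (1342 RPM) for H4, HHT2 (5983 RPM) and HHT1 (2608 RPM) for H3, HTB1 (4758 RPM) and HTB2 (936 RPM) for H2B, and HTA1 (2549 RPM) for H2A. HTA2, the variant HTZ1 and the linker histone HHO1 had none. HTA1 stood apart in the comparison with Puf5: at the overlapping site Puf4 had 2549 RPM and Puf5 40659.5 RPM, while at the site of HTB1, its divergent neighbour, Puf4 had 4758 RPM and Puf5 2659.9 RPM.

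The translation machinery followed. Elongation and termination factors had sites in 9 of 15 genes (60.0%, 32.3 to 83.7), at a list median of 634 RPKM. At that level 36 of 100 genes were bound (list members included), a value inside the interval. Puf5 had 3' UTR sites in 10 of the 15, the 9 included. SUP45 led with 6071 RPM, followed by YEF3, the fungal elongation factor 3 (4764 RPM), and TEF1 and TEF2, 2 genes of elongation factor 1A (4352 and 1154 RPM). EFT2, an elongation factor 2 gene, had 1074 RPM. Initiation factors had sites in 8 of 29 genes (27.6%, 12.7 to 47.2). Their list median of 386 RPKM lies in the highest quintile, whose share of 22.5% is inside the interval. So is the 17 of 100 genes at 389 to 485 RPKM. After NIP1 came TIF2, an eIF4A gene (2974 RPM), GCD11, the gamma subunit of eIF2 (2499 RPM), PRT1, another eIF3 subunit (2075 RPM), and the poly(A)-binding protein gene PAB1 (1456 RPM). Aminoacyl-tRNA synthetases had sites in 2 of 20 genes (10.0%, 1.23 to 31.7), near the share of all genes. Their list median of 380 RPKM lies in the highest quintile, where 22.5% were bound, a value inside this wide interval. The 17 of 100 genes at 389 to 485 RPKM are inside it too. GRS1, the glycyl-tRNA synthetase, had 2523 RPM, while ILS1 was at the low end with 1.22 RPM.

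Cytosolic ribosomal protein genes were the most numerous of the listed genes. Small subunit genes had sites in 31 of 56 (55.4%, 41.5 to 68.7) and large subunit genes in 38 of 81 (46.9%, 35.7 to 58.3). The list medians were 1189 and 978 RPKM, levels at which 43 of 100 genes were bound (list members included), a value inside both intervals. Puf5 had 3' UTR sites in more of them, 38 and 57 genes. Among the strongest in Puf4 were RPS19B (6743 RPM), RPS27A (4665 RPM), RPS30A (3086 RPM) and RPS17B (2929.7 RPM) in the small subunit. RPL39 (5777 RPM), RPL9B (5015 RPM), RPL13B (3550.4 RPM), RPL18B (3418 RPM) and RPL27B (3380.3 RPM) led the large subunit. Per unit of mRNA their medians were 0.859 and 1.13 RPM per RPKM, against 1.47 over all bound genes of the highest quintile.

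Many ribosomal protein genes exist as A and B copies that encode nearly the same protein but have different 3' UTRs. The comparison of copies was chosen after values had been seen. Of 59 such pairs, 15 had Puf4 3' UTR sites in both copies, 30 in a single copy and 14 in neither, which makes 60 of 118 copies (50.8%). With about this share bound, many pairs of unrelated genes would also have a site in a single member. Whether the pairs differ from unrelated genes was not tested. Puf5 had 3' UTR sites in both copies of 22 pairs, in a single copy of 36 and in neither of 1. The bound copy was the first by name in 12 of the 30 and the second in 18. In coding sequence, 25 pairs had Puf4 sites in both copies, but reads from near-identical coding sequences could have been placed at either copy or listed at both. Some pairs had the same coding RPM at both copies, such as 1092 RPM in RPS4A and RPS4B and 170.9 RPM in RPL35A and RPL35B. The count of 25 may therefore include the same reads listed at both copies. RPS19B had 6743 RPM and RPS19A no site, and RPS27A had 4665 RPM and RPS27B none. The bound copy could have the lower mRNA level: RPL27B had 3380.3 RPM at 622 RPKM, and RPL27A had no site at 1198 RPKM. Where both copies were bound, the stronger exceeded the weaker by a median of 2.31-fold, between 1.02-fold in RPS10A and RPS10B and 6.70-fold in RPL22B over RPL22A. Of the 4 core histone pairs, 3 had sites in both copies, with HHF2 6.32-fold over HHF1, HTB1 5.08-fold over HTB2 and HHT2 2.29-fold over HHT1. RPKM of near-identical copies is uncertain for the same reason as coding sites.

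Nucleolar ribosome biogenesis factors, the class for which Puf4 is best known, had sites in 30 of 152 genes (19.7%, 13.7 to 27.0). Their mRNAs are of middling abundance, with a list median of 97.8 RPKM, which falls in the fourth quintile, where 10.2% of all genes were bound. Puf5 had 3' UTR sites in 28 of the 152 (18.4%), close to its share of all measured genes, 17.3%. Puf2 and Puf6 had 2 each and Puf1 had 0. Of the 30 bound genes, 18 had no Puf5 3' UTR site and 16 had no 3' UTR site in any other library, against 46.6% and 41.1% of all 474 genes. These shares are not at a like mRNA level. The 30 had a median of 151 RPKM, against 214 RPKM over all bound measured genes. Puf5 3' UTR sites were in 19.0% of genes of the fourth quintile and 38.2% of the highest. The medians of the 30 were 885 RPM and 5.60 RPM per RPKM, while all bound genes of the fourth quintile had 601 RPM and 5.13 RPM per RPKM. Mitochondrial ribosomal protein genes (7.36) and plasma membrane transporter genes (5.43) had ratios of the same order.

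The strongest of these genes was NOP2, an rRNA methyltransferase of the large subunit pathway, with 3383 RPM from 2 sites and none in the other 4 libraries. UTP22, a small subunit processome protein, had 2776 RPM in Puf4, against 225 RPM in Puf5. NOP1 had 1923 RPM in Puf4, against 502 RPM in Puf5. RPF2, which brings 5S rRNA into the pre-ribosome, had 1637 RPM in Puf4, against 22.1 RPM in Puf5, and PNO1, a small subunit assembly factor, had 1635 RPM in Puf4, against 140.3 RPM in Puf5. In all 4 of these genes Puf4 was the stronger library, but they were named for their high Puf4 RPM, which favours this outcome. Puf4 was the higher at 142 of all 207 Puf4 3' UTR sites that overlapped a Puf5 site. At the low end, GAR1, a subunit of H/ACA snoRNPs, had 1.89 RPM and PUF6 had 1.22 RPM. Subunits of RNA polymerases I and III, which transcribe the ribosomal RNAs, were at the share of all genes with 2 of 24 (8.33%): RPB8 had 909 RPM and RPA12 412 RPM.

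**Figure D4:**
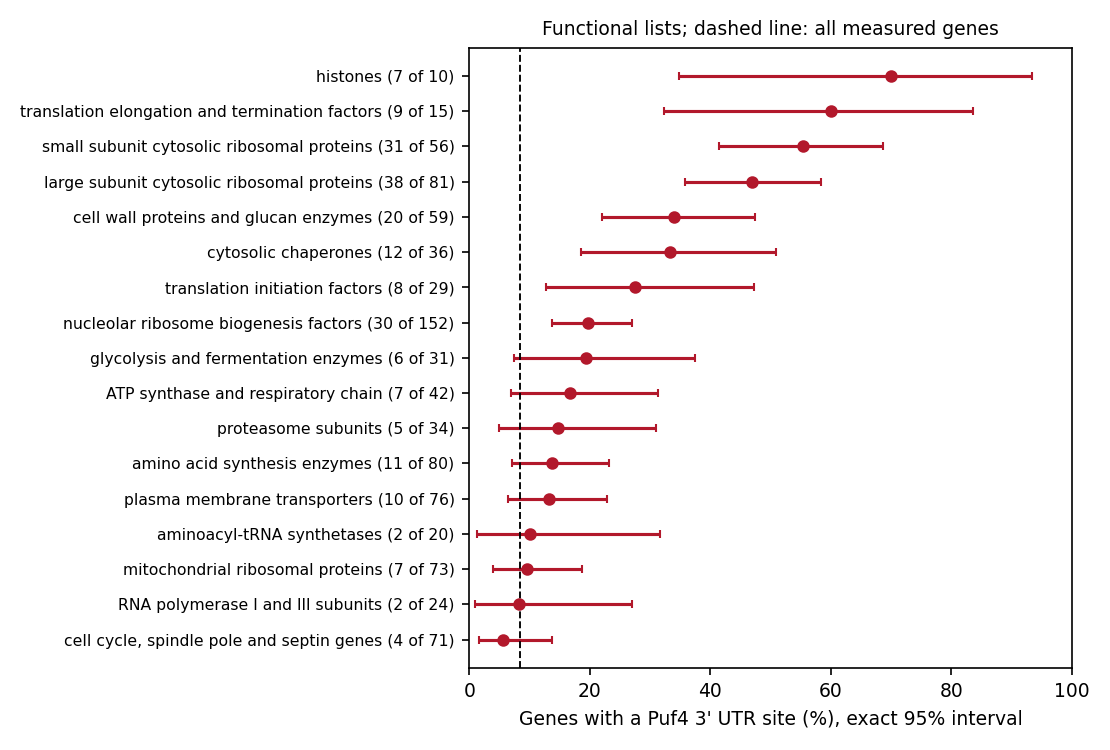
Share of measured genes with a Puf4 3' UTR site in each functional gene list except the Puf family and HO, as points with exact 95% binomial intervals. The share of all measured genes (8.35%) is a dashed line. Histones (70.0%), elongation and termination factors (60.0%) and ribosomal protein genes (55.4% and 46.9%) lie highest, and nucleolar factors are at 19.7%.

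Among cell surface genes, cell wall proteins and glucan enzymes had Puf4 3' UTR sites in 20 of 59 genes (33.9%, 22.1 to 47.4). Their list median was 374 RPKM. At the nearest level counted, 389 to 485 RPKM, 17 of 100 genes were bound, a value below the interval. The 22.5% of the whole highest quintile, which includes far more abundant mRNAs, is just inside it. The 20 bound genes themselves had a median of 1053 RPKM. DSE2 had 3962 RPM, PIR1 3874 RPM, HSP150 3534 RPM, SED1 2549 RPM and CIS3 2436 RPM, and all except the glucanase DSE2 encode structural wall proteins. Of the 20, 16 had a Puf5 3' UTR site, against 53.4% of all genes with a Puf4 3' UTR site, and Puf5 had such sites in 31 of the 59. HSP150 had summed 3' UTR values of 3534 RPM in Puf4, 16792 RPM in Puf1, 4910.3 RPM in Puf2 and 2316 RPM in Puf5. CIS3 had a 3' UTR site in Puf4 alone. Plasma membrane transporters had sites in 10 of 76 genes (13.2%, 6.49 to 22.9). Their list median of 75.3 RPKM lies in the third quintile, whose share of 4.08% is below the interval. The 10 bound genes themselves had a median of 206 RPKM. After PHO84 (8043 RPM) came the hexose transporters HXT7 (1344 RPM) and HXT3 (1262 RPM), the amino acid permease BAP3 (1069 RPM) and the purine permease FCY2 (932 RPM). PMA1, the proton pump, had only 759 RPM in Puf4, against 51973 RPM in Puf1 and 46838 RPM in Puf2.

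Cytosolic chaperones had sites in 12 of 36 genes (33.3%, 18.6 to 51.0). Their list median was 355 RPKM. At the nearest level counted, 389 to 485 RPKM, 17 of 100 genes were bound, a value just below the interval. The 22.5% of the whole highest quintile, which includes far more abundant mRNAs, is inside it. The 12 bound genes themselves had a median of 811 RPKM. The Hsp70 genes SSA1 (4119 RPM), SSA2 (3042 RPM) and SSB2 (1967 RPM), the nucleotide exchange factor SSE1 (1902 RPM) and the Hsp90 gene HSC82 (1199 RPM) led. Proteasome subunits had sites in 5 of 34 genes (14.7%), with RPT5 at 1551 RPM, and none of these 5 genes had a 3' UTR site in another library, as held for 41.1% of all 474 genes. Glycolysis and fermentation had 6 of 31 genes with a 3' UTR site (19.4%), although 22 of the 31 had a Puf4 coding site. After TDH3 these were CDC19, pyruvate kinase (1859 RPM), GPD1 (1389.8 RPM), TDH1 (509 RPM), GPD2 (458 RPM) and GLK1 (21.9 RPM). Amino acid synthesis had 11 of 80 (13.8%), where SAM2 (1138 RPM), LYS20 (912 RPM) and ILV1 (863 RPM) were weaker than ILV5. ATP synthase and the respiratory chain had 7 of 42 (16.7%), where QCR8 (795 RPM), NDI1 (589 RPM), ATP2 (585 RPM) and NDE1 (446 RPM) followed far behind ATP1.

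Lists near or under the share of all genes were mitochondrial ribosomal proteins, with 7 of 73 (9.59%), and cell cycle, spindle pole and septin genes, with 4 of 71 (5.63%). MRPL10 had 1024 RPM, MRPL17 991 RPM, MRPL23 982 RPM, MRPS35 888 RPM and MRPS5 362 RPM. SPO12, a regulator of mitotic exit, had 753 RPM, the septin CDC12 184 RPM, the spindle pole protein SPC97 136 RPM and the tubulin gene TUB3 115 RPM. These lists hold mRNAs of lower level than ribosomal proteins, with median RPKM of 119 and 46.6.

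The Puf family itself had 2 of 7 genes with a Puf4 3' UTR site, counting PUF6 again. MPT5, which encodes Puf5, had 539 RPM in Puf4 at 24.8 RPKM and no 3' UTR site in Puf5. PUF6 had 1.22 RPM in Puf4, against 102 RPM in Puf5. PUF4 mRNA had 1866 RPM in Puf4 at 3 sites classed as 5' UTR and no 3' UTR site, and Puf5 had 1 site of 179 RPM in its 3' UTR. PUF4 was the tagged gene in the Puf4 strain and MPT5 in the Puf5 strain. An effect of the tag on the 3' UTR sites of these mRNAs was not tested. PUF3, PUF2 and JSN1 had no Puf4 site in the 3' UTR. HO, a known target of Puf4, had no site in any of the 5 libraries, although its mRNA was listed at 94.4 RPKM.

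Overlap with the other libraries depended on which list was taken as the whole. Of the 540 Puf4 3' UTR sites, 207 overlapped a Puf5 site by at least 1 nt on the same strand, which is 38.3% (34.2 to 42.6). Among the Puf4 coding sites 25 of 1170 did (2.14%). Overlap with Puf2 was found for 67 of the Puf4 3' UTR sites (12.4%), with Puf1 for 35 (6.48%) and with Puf6 for 15 (2.78%), against 4.53%, 1.28% and 2.31% of the Puf4 coding sites. From the other side, the shared sites were 15.5% of the 1335 Puf5 sites in 3' UTRs and 19.5% of those of Puf2, 17.5% of those of Puf1 and 16.3% of those of Puf6. At the level of genes, 253 genes were shared with Puf5, which is 53.4% of the Puf4 genes and 26.0% of the Puf5 genes. Genes shared with Puf2, Puf1 and Puf6 were 19.6%, 11.6% and 8.02% of the Puf4 genes, and 35.5%, 35.0% and 45.8% of the genes of those libraries. Puf5 thus took the largest share of the Puf4 list, which was the smallest share of its own, longer list. Of the strongest 100 Puf4 sites 67 overlapped a Puf5 site, and of the 83 weakest 20 did. The lists differ in the number and strength of the sites called, RNase T1 cut all libraries at the same base, and the part of either in these overlaps was not tested.

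The 207 overlapping sites had medians of 849 RPM in Puf4, against 232 RPM in Puf5, and Puf4 was higher in 142. Over all 3' UTR sites the medians were 625 RPM in Puf4 and 128 RPM in Puf5, so Puf4 values were also higher over the whole lists. The ratio of Puf4 to Puf5 RPM had a median of 2.83, with quartiles at 0.810 and 6.83, on scales set separately in each library. RPF2 was at one end with a ratio of 74.2, followed by BBC1 (67.3), an actin patch protein gene with 2223 RPM in Puf4, against 33.0 RPM in Puf5, and NIP1 (58.0). At the other end RPL28 had 1.76 RPM in Puf4, against 4288 RPM in Puf5. IXR1, a DNA-binding repressor gene, had 1565 RPM in Puf4, against 9789 RPM in Puf5, and HTA1 was in the same direction. In 30 cases the bounds of the site were the same in both libraries.

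**Figure D5:**
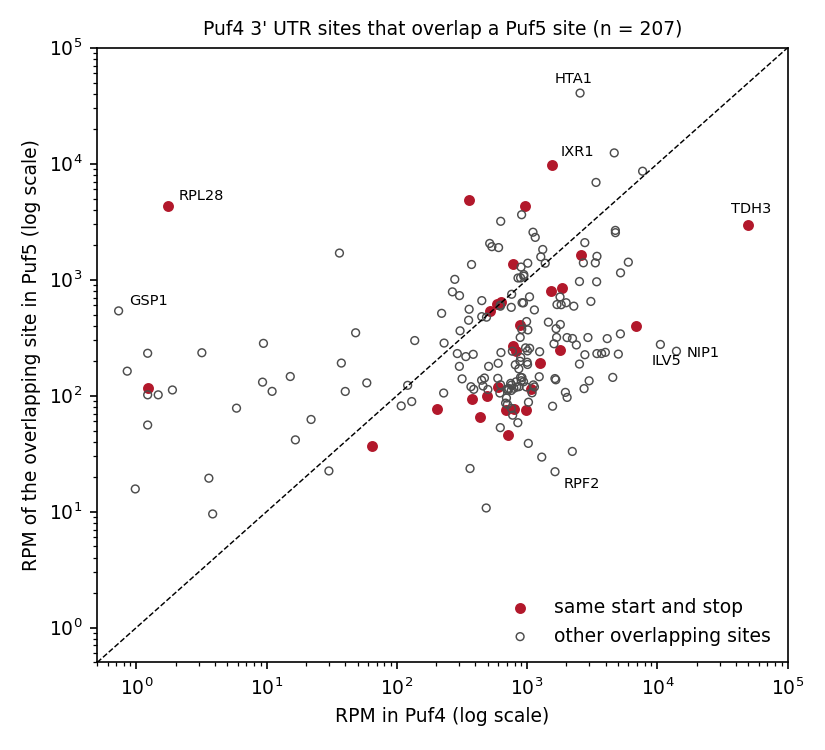
RPM in Puf4 (horizontal) and of the overlapping site in Puf5 (vertical, both axes log10) at the 207 Puf4 3' UTR sites that overlap a Puf5 site, with a dashed line of equal RPM and filled points for the 30 sites with the same bounds in both. Puf4 is higher at 142 sites, and RPF2, ILV5 and NIP1 lie on the Puf4 side, while HTA1, IXR1 and RPL28 lie on the Puf5 side.

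The larger part of the sites, 298 (55.2%), overlapped no site of another library, and these held 34.3% of the 3' UTR RPM. The others overlapped 1 library (176 sites), 2 libraries (50 sites) or 3 libraries (16 sites), and 0 sites overlapped all 4. Their median rose with the number of libraries, at 522, 715, 941 and 1072 RPM for 0, 1, 2 and 3. The strongest without overlap were ATP1, the second site of ILV5 (3232 RPM) and BMH1, a 14-3-3 protein gene (3045 RPM). RPL14B (2633 RPM), SEC16 (2562 RPM), RPL13B (2545 RPM), PIR1 (2525 RPM), GCD11 (2499 RPM), CIS3 (2436 RPM) and NOP2 (2432 RPM) followed. For 195 of the 474 genes (41.1%) a 3' UTR site was listed in Puf4 only, and these had a median of 113 RPKM.

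Within the Puf4 library, 163 of the 474 genes also had coding sites and 311 had none. In the 163 genes the summed RPM was a median of 898 in the 3' UTR and 149 in the coding sequence, and the 3' UTR was higher in 130. YKL063C, a gene of unknown function, was an exception among the strong ones, with 642 RPM in its 3' UTR and 2519.8 RPM in its coding sequence. TEF2 (1154 and 1481 RPM) and TEF4 (536 and 1103 RPM), both of translation elongation, were others. TEF1 and TEF2, genes of the same factor, each had 15 Puf4 coding sites, with sums of 1383 and 1481 RPM. Reads could have been listed at both of these genes, so the coding value of TEF2 is uncertain. A 5' UTR site of Puf4 was found in 17 of the 474 genes.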

How the data were processed

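Each CLIP library was deposited by the authors as 1 table of sites with coordinates, gene, class and RPM. The submitters' processing notes name CASAVA 1.8.2, Bowtie 0.12.7 and build sacCer3. Not given in the sources used here were the site caller, the UTR annotation, the RPM divisor and whether positions count from 0 or 1, so distances are good to 1 nt. RPM did not fall on whole-read steps (32.5% of 77 values within 0.006 RPM of the best step), so depth is unknown and RPM has no interval. Both mRNA-seq samples stand together in 1 deposited RPKM column.

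Gene names and bounds came from a RefSeq table of assembly R64, without UTRs. Of the 474 genes 467 matched it, and 461 had a match and an RPKM of at least 1. CUP1-1 and CUP1-2 share identical values and cannot be told apart. Members, the 19 gene lists and the choices were made with earlier results of these data known. Genes were named by rule: the 20 largest RPM sums, the most sites, the 10 highest RPM per RPKM, up to 5 per list, the 10 strongest sites, and the Puf family and HO. BBC1, IXR1, RPL28, GSP1, BMH1, USE1, YKL063C and the genes that extend or lack these patterns were chosen after values were seen. Computation used Python 3.11.15 with pandas 2.3.3 and scipy 1.17.1, and overlap and interval code was tested on simulated data. Site sequences were not analysed here. A few genes that the rule names are not reported here.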

Additional observations from a re-analysis of the deposited data

How the results depend on the processing

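The share of Puf4 sites in 3' UTRs (17.99%) was 29.0% among the 50% of sites with the highest RPM, 27.6% with sites of identical RPM and length counted once, and 25.3% among sites of at least 30 RPM, a bound added after the data were seen. With that bound the median of Puf4 3' UTR sites was 769.5 RPM (625 RPM with all sites) and the share of measured genes 7.14% (8.35%); the top 50% of sites gave 6.87%. The share of genes with at least 2 sites (9.92% to 12.03%), the overlap with Puf5 (34.6% to 39.8%), Spearman's rho (0.32 to 0.36) and the number of lists above 2 times the share of all genes (10 to 11) stayed close under every alternative run. Alternatives that need a genome sequence (motifs) were not run. No paired analysis was possible because each protein had 1 library and the mRNA-seq samples were pooled in 1 column, so no replicate could be left out either. Depth is unknown, so the absence of a site, as in HO, cannot be read as absence of binding.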

Other observations

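Some strong genes outside the lists, picked after values were seen, had no 3' UTR site in another library. ACC1, acetyl-CoA carboxylase, had 2183 RPM in its 3' UTR, CIT1, mitochondrial citrate synthase, had 2042 RPM, PDA1, a pyruvate dehydrogenase subunit, had 2009.8 RPM, and PYC1, a pyruvate carboxylase, had 1757 RPM. Each had 1 Puf4 site in its 3' UTR, and ACC1 also had a coding site of 73.2 RPM. Their mRNA levels ranged from 91.7 RPKM in PYC1 to 772 RPKM in PDA1. VTC4, a polyphosphate synthase subunit, had 3436 RPM in Puf4 and 1589.9 RPM in Puf5.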
